A study of Mus musculus with 23 samples.

Results

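Livers of wild-type female mice were compared with livers of wild-type male mice, 6 arrays against 5. The members were the arrays whose titles name the wild-type (WT) genotype, female replicates 1 to 6 and male replicates 2 to 6, which make 11 of the 23 arrays of a study of P2ry13. P2ry13, also called GPR86, encodes a receptor for ADP, and the study asked which liver transcripts change when it is ablated. The other 12 arrays, 6 of female and 6 of male mice of the GPR86 knockout (KO) genotype, were used for the shared estimate of the spread and, at the end, as a second set of animals. No treatment is named in the labels, and the sources used here do not give strain, age, diet, litter or how the allele was made. The design text counts mice per group, 1 array for each, so the error below is the spread between animals and arrays together.

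The liver is one of the most sexually dimorphic organs of the mouse outside the reproductive tract. In males growth hormone reaches it in pulses separated by long gaps, in females almost continuously, and hepatocytes read this pattern through the growth hormone receptor, the kinase JAK2 and the transcription factor STAT5B. BCL6 in males and CUX2 in females are repressors within this circuit, and many cytochromes P450, sulfotransferases, transporters and secreted proteins follow it. Values are log2 intensities, differences are female minus male on the log2 scale, so that 1 means a 2-fold change, and "called" means a Benjamini-Hochberg adjusted p under 0.05 in limma over all probe sets.

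The labels matched the sex-linked probe sets. Xist, the X-inactivation RNA, read 8.42 to 9.03 in females and 4.14 to 5.22 in males, and Eif2s3y, a Y-linked translation factor, read 2.72 to 3.45 in females and 8.23 to 8.91 in males. Kdm5d and Uty, also Y-linked, read at most 3.24 and 3.69 in females and at least 6.56 and 4.91 in males. Across 4 Y-linked probe sets the female WT arrays lay between 2.72 and 3.69 with a median of 2.91. The top of that range, 3.69, is used as the level that signal without transcript can reach. Where every array of a group lay at or under it, the fold is a lower bound against it, written "at least". The tissue label was checked on 9 hepatocyte markers, none of which was at that level in both sexes, with a summed linear intensity of 78252 to 85962 in females and 74247 to 81432 in males. Array medians lay between 19.9 and 21.0 in linear units. Correlations over all probe sets were 0.991 to 0.995 between females, 0.992 to 0.995 between males and 0.985 to 0.991 between a female and a male. No array stood apart from its group over all probe sets, and in the most alike pair of arrays 0.529% of values were identical.

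Sex differences reached many autosomal genes, and few of them were large. Of 18245 autosomal genes, each read by its brightest probe set, 1050 were called (5.76%), 630 higher in females (3.45%) and 420 lower (2.3%). Most of the called differences were small: the median size was 0.437, and 76 genes were over 1 higher in females and 40 over 1 lower. Only 26 and 11 genes, respectively, passed 2, a 4-fold change. The female and male arrays did not overlap for 418 of the 630 and 278 of the 420. Over all autosomal genes, called or not, the groups were apart with females higher for 3.06% and with females lower for 2.25%. Over all 38385 probe sets 1632 were called (4.25%), and 6331 had an unadjusted p under 0.05 where 1919 would by chance. In whole liver, fewer cells of a type and less RNA per cell cannot be told apart, which holds for every difference below.

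**Figure D1:**
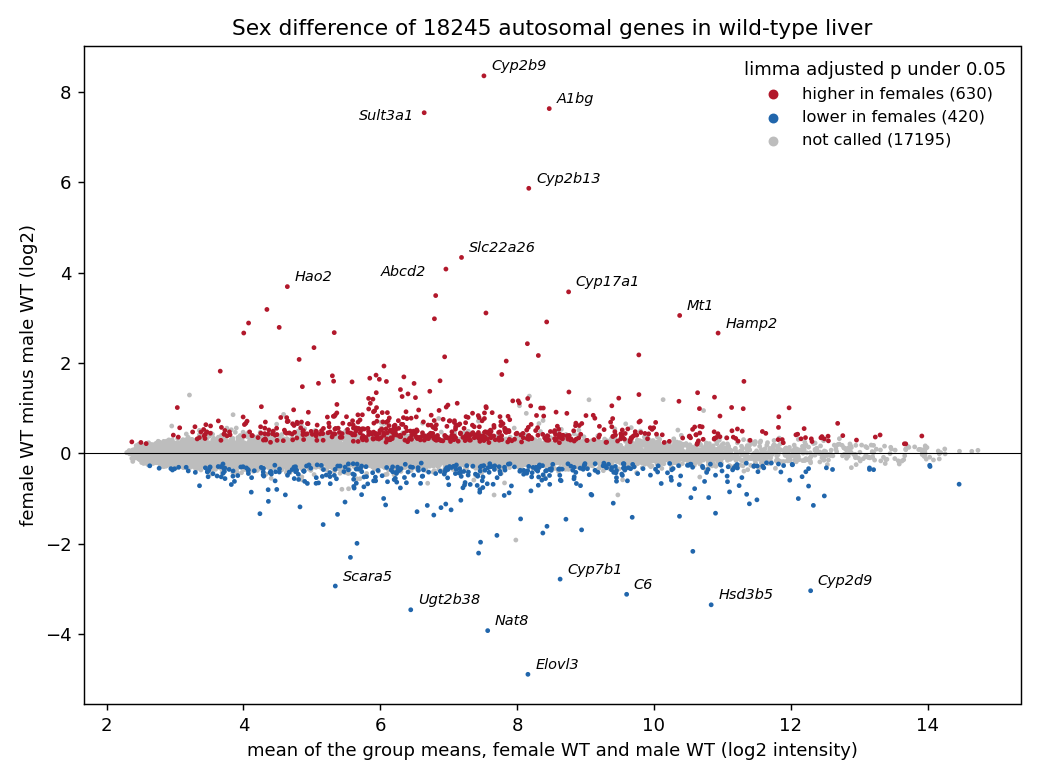
Each point is 1 of 18245 autosomal genes, with the mean level of both WT groups in log2 intensity on the horizontal axis and the female minus male difference in log2 on the vertical axis. The 630 genes called higher and the 420 called lower in females lie at all levels. Cyp2b9 at 8.35 and Elovl3 at -4.88 are the extremes among the called genes whose symbol is no clone or predicted-gene name.

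The 3 largest differences in favour of females were those of Cyp2b9, A1bg and Sult3a1. Rankings here and below leave out genes whose symbol is a clone or predicted-gene name. Cyp2b9, a cytochrome P450 of the phenobarbital-inducible family, ran from 11.56 over a median of 11.68 to 11.85 in females. The males read 3.65, 3.05, 3.37, 3.62 and 3.02, all within the range of Y-linked probe sets in females. The groups were thus separated by most of the scale of the array, with a difference of 8.35 (SE 0.11, limma adjusted p = 9.47e-28), at least 255-fold. A1bg, which encodes a plasma glycoprotein, ran from 11.49 over 12.27 to 13.08 in females against 4.13, 4.11, 5.18, 4.98 and 4.89 in males, a difference of 7.62 (SE 0.26, limma adjusted p = 2.18e-18), or 197-fold. Sult3a1, a sulfotransferase that acts on amines, ran from 9.5 over 10.31 to 11.24 in females against 3.02, 2.84, 2.9, 2.77 and 2.84 in males. Its difference of 7.53 (SE 0.21, limma adjusted p = 2.73e-20) was at least 105-fold, since all males were at the level without transcript.

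Cyp2b13 and Cyp2b10 followed their neighbour Cyp2b9 in direction, but the males kept a readable signal. Cyp2b13 ran from 10.38 over 11.23 to 11.49 in females and read 5.43, 5.59, 4.32, 5.47 and 5.4 in males, a difference of 5.86 (SE 0.2, 58.2-fold). Male replicate 4 was the lowest of its group by a clear gap. Cyp2b10, the member most used as a readout of the receptor CAR, ran from 7.99 over 8.46 to 9.2 in females against 5.83, 4.66, 4.93, 5.55 and 4.35 in males, a difference of 3.49 (SE 0.25, 11.2-fold). Probe sets of near-identical paralogs can share signal, here and in the Cyp2c, Cyp2d, Cyp3a, Sult2a, Hsd3b, Ugt2b, Mup and Gbp families. The split of a signal within a family is thus uncertain.

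Slc22a26, an organic anion transporter of the liver and kidney, stood at 9.11, 9.4 and 9.52 (lowest, median, highest) in females and at 5.05, 4.94, 5.34, 5.08 and 4.69 in males, 20.2-fold apart. Abcd2, a peroxisomal transporter of very long-chain fatty acids, differed by 4.08 (SE 0.17, 16.9-fold), and its 3 other probe sets differed by 4.02, 3.63 and 2.45 in the same direction. Cyp17a1, the 17-alpha-hydroxylase of steroid synthesis, ran from 9.96 over 10.61 to 10.97 in females against 6.5, 6.59, 6.75, 7.68 and 7.31 in males, a difference of 3.57 (SE 0.18). For all of these the lowest female lay above the highest male.

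RefSeq promoter windows of 4 of these genes, ranked 1, 2, 3 and 5, are shown because 3 of them hold both letter patterns searched. A window spans 250 bases before to 50 bases after the annotated start on build GRCm38.p6. Capitals mark TTCNNNGAA, the core pattern of STAT5 sites, and ATTGAT, the core bound by HNF6, which Onecut1 encodes, each searched on both strands, so that ATTGAT may be printed as ATCAAT. The windows are chr7:26173159-26173458 on the plus strand for Cyp2b9, chr15:60921221-60921520 on the minus strand for A1bg, chr10:33857472-33857771 on the plus strand for Sult3a1 and chr19:7802618-7802917 on the minus strand for Slc22a26, each printed 5′ to 3′ along its gene.
Cyp2b9: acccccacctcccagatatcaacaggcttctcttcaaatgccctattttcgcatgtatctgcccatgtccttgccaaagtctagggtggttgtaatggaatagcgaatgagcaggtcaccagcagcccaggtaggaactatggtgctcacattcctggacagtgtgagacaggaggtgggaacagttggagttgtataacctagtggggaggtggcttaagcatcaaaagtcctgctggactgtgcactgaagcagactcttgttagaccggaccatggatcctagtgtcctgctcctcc
A1bg: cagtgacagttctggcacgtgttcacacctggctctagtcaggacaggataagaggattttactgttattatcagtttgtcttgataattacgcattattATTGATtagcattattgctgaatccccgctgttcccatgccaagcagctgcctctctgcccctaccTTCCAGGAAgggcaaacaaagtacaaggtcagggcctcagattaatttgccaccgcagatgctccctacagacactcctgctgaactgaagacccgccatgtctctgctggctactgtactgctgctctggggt
Sult3a1: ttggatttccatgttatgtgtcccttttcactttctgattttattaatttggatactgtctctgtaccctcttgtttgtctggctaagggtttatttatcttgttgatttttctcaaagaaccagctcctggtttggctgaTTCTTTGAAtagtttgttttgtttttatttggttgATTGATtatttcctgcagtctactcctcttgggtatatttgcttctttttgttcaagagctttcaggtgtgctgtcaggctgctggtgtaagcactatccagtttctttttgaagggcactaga
Slc22a26: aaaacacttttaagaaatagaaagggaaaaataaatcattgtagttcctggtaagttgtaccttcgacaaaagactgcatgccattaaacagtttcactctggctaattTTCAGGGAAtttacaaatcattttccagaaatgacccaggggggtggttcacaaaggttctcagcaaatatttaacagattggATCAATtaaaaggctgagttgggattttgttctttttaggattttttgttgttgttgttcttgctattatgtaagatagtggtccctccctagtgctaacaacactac
In A1bg TTCCAGGAA begins at -84 from the start and ATTGAT at -150. In Sult3a1 TTCTTTGAA begins at -109 and ATTGAT at -74, and in Slc22a26 TTCAGGGAA begins at -141 and ATCAAT at -58. Neither pattern is in the window of Cyp2b9, nor in that of Cyp2b13, which ranks between Sult3a1 and Slc22a26 and is not printed. Such matches are common: TTCNNNGAA is in 7.83% of the 17950 windows of all autosomal genes measured and ATTGAT in 5.87%. Among windows of genes called higher in females the shares were 9.37% and 4.98%, and among those of genes called lower in females 6.94% and 8.56%. Of the 78 windows of genes over 1 higher in females, 11 hold TTCNNNGAA (14.1%), against 2 of 41 (4.88%) for genes over 1 lower. For ATTGAT the same windows gave 10 of 78 (12.8%) and 5 of 41 (12.2%). Of the 15 genes highest in females 12 had a window and 3 of them hold TTCNNNGAA, and of the 15 lowest 10 had a window and 0 hold either pattern. A match is a description of letters, not a binding site.

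The largest difference in favour of males was that of Elovl3. Elovl3, which elongates saturated and monounsaturated fatty acids, ran from 5.26 over 5.83 to 6.02 in females and read 10.67, 10.5, 10.56, 10.68 and 10.6 in males. The male arrays lay close together and far above every female, with a difference of -4.88 (SE 0.12, limma adjusted p = 5.42e-22), 29.5-fold. Cyp2d9, a testosterone 16-alpha-hydroxylase and a classic male marker, ran from 10.69 over 10.75 to 10.94 in females against 13.77, 13.86, 13.76, 13.83 and 13.82 in males, a difference of -3.03 (SE 0.1, 8.2-fold). Cyp7b1, which hydroxylates oxysterols and androgens, ran from 6.55 over 7.3 to 7.59 against 10.21, 9.61, 10.21, 9.91 and 10.14, a difference of -2.78 (SE 0.22, 6.86-fold). Both gave a clear signal in both sexes, so the female signal was lower rather than absent. For Cyp2d9 part of it may come from paralogs.

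Nat8, an acetyltransferase, differed by -3.92 (SE 0.23, 15.1-fold), with males at 10.31, 9.97, 8.9, 9.4 and 9.06 and females from 5.04 over 5.54 to 6.39. Its relative Nat8f5 differed by -1.96 (SE 0.23). Scara5, a ferritin-binding scavenger receptor, ran from 3.49 over 3.97 to 4.22 in females, close to the level without transcript, and read 6.99, 6.85, 6.6, 6.05 and 7.56 in males, a difference of -2.93 (SE 0.25, 7.63-fold). Ttc39c differed by -2.16 (SE 0.08), Olig1, better known as a neural transcription factor, by -1.99 (SE 0.25) and Etfbkmt, a methyltransferase of a mitochondrial flavoprotein, by -1.81 (SE 0.21). None of these overlapped between the sexes, but they were named for being among the 15 lowest called differences. Of all autosomal genes 2.25% were apart with females lower.

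**Figure D2:**
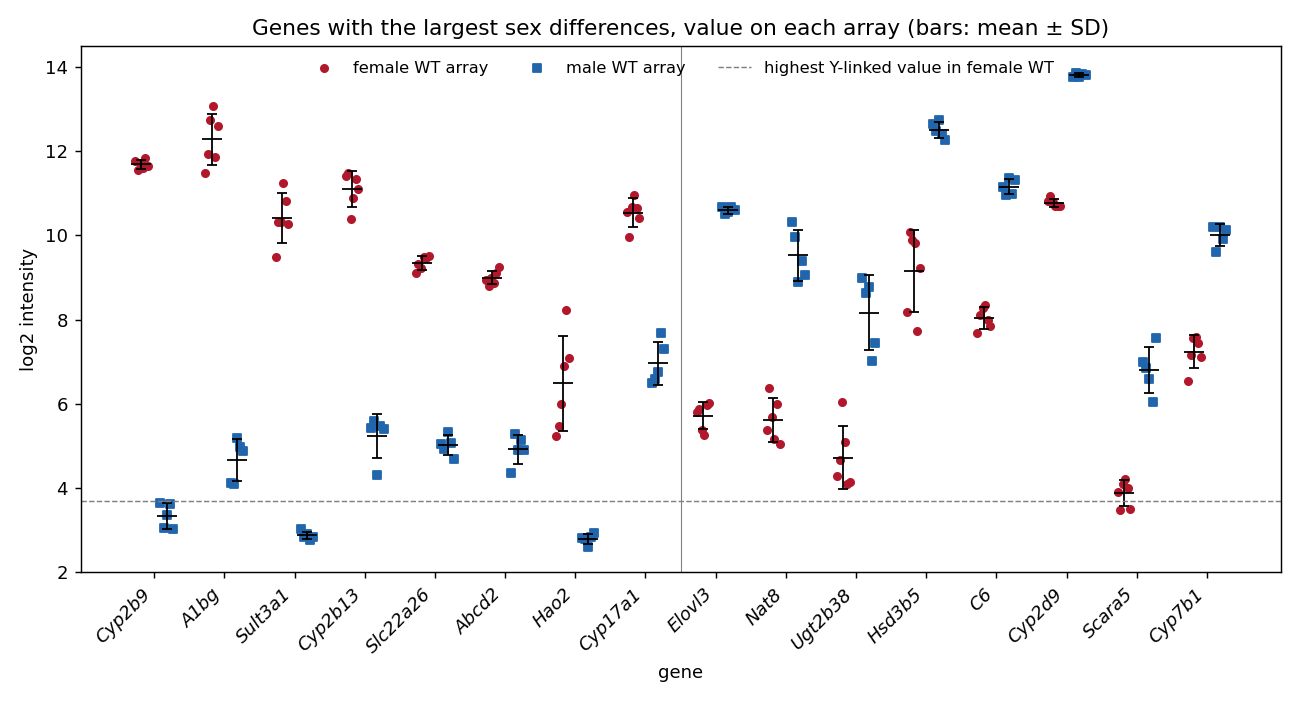
Log2 intensity on each WT array for the 8 genes with the largest female excess (left) and the largest male excess (right), with the mean and SD of each group as bars and the highest Y-linked value in females, 3.69, as a dashed line. The sexes are apart for all 16 genes, which were picked for the size of their difference. Males lie under the line for Cyp2b9, Sult3a1 and Hao2, and females spread most for Hao2 and Hsd3b5.

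Genes already known as sex-biased in mouse liver were called only in their known direction. Of 20 measured genes on a list of known male-biased genes 19 were called lower in females and 0 higher, with a median of -1.25. Of 28 on a list of known female-biased genes 24 were called higher and 0 lower, with a median of 2.26, where the median of all autosomal genes was -0.00942. These lists were drawn up as sex-biased, so the counts describe how far these animals follow them. They were also chosen with earlier results of these data known, so the counts are no independent check.

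The cytochrome P450 families were split between the sexes rather than shifted. In the Cyp2 family 6 of 26 measured genes were higher in females and 4 lower, against 3.45% and 2.3% of all autosomal genes. The family's median was -0.08. These shares of all autosomal genes are the background for the other lists below as well. Besides the Cyp2b genes, the females had more of Cyp2c38 and Cyp2c39, which metabolise fatty acids and retinoids. Cyp2c38 ran from 5.81 over 6.67 to 7.29 in females against 3.93, 4.18, 3.89, 4.23 and 3.72 in males, a difference of 2.67 (SE 0.21, 6.37-fold), and Cyp2c39 differed by 1.32 (SE 0.11). Cyp2f2, an abundant P450 of the periportal zone, was a little lower in females, by -0.36 (SE 0.08, limma adjusted p = 0.0048), at 13.03 ± 0.12 (SD, n = 6) against 13.39 ± 0.08 (SD, n = 5).

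In the Cyp1, Cyp3a and Cyp4 families 3 of 19 genes were higher in females and 1 lower, against 3.45% and 2.3% of autosomal genes. Without female replicate 5 or male replicate 6 there were 2 lower. The member called lower was Cyp4v3, at -0.4 (SE 0.07). Cyp4a14, a fatty acid omega-hydroxylase and a PPAR-alpha target, ran from 10.68 over 10.8 to 11.1 in females and read 7.96, 9.21, 8.29, 9.95 and 8.04 in males, a difference of 2.18 (SE 0.34, 4.53-fold). The females were tightly grouped while the males spread over almost 2 units. Cyp3a16, a fetal and female-specific P450, showed the opposite: males read 2.96, 2.48, 2.52, 2.6 and 2.81, all without signal, and females 1 to 6 read 3.59, 4.16, 6.23, 7.83, 4.01 and 6.2. Female replicates 3, 4 and 6 were thus high and 1, 2 and 5 low, and the difference of 2.66 (SE 0.55, limma adjusted p = 0.00313) stood for at least a 3.12-fold excess. The same 3 females were highest for its paralog Cyp3a44, at 9.88, 10.29 and 9.98 against 8.66, 8.86 and 8.94 in the others and 7.85 to 8.21 in males.

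Among flavin monooxygenases and other phase I oxidases 6 of 25 were higher in females and 5 lower, against 3.45% and 2.3% of autosomal genes. Fmo2 differed by 1.69 (SE 0.19) and Fmo1, another liver form, by 0.99 (SE 0.07), at 11.8 ± 0.11 (SD, n = 6) against 10.81 ± 0.16 (SD, n = 5). The other probe sets of Fmo2 and Fmo1 differed by 0.41 and 0.2, so both sizes depend on the probe set. Aldh1b1, a mitochondrial aldehyde dehydrogenase, differed by 1.0 (SE 0.09). In the other direction Aox3, an aldehyde oxidase of the liver, ran from 10.04 over 10.23 to 10.41 in females against 11.34, 11.6, 11.78, 11.26 and 11.83 in males, a difference of -1.32 (SE 0.11).

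The 2 glycolate-oxidase relatives went opposite ways. Hao2, which oxidises long-chain hydroxy acids, read 5.25, 5.47, 5.99, 6.89, 8.23 and 7.09 in females 1 to 6 and 2.81, 2.8, 2.6, 2.85 and 2.93 in males, a difference of 3.69 (SE 0.32), at least 6.93-fold. The 6 females spanned about 3 units, from a weak to a clear signal. Hao1, the glycolate oxidase that makes glyoxylate, differed by -0.85 (SE 0.09, limma adjusted p = 1.68e-07).

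More sulfation genes were called higher than lower in females, and more glucuronidation genes lower than higher. Of 17 sulfotransferases and their cofactor enzymes 7 were higher in females and 1 lower, against 3.45% and 2.3% of all autosomal genes. The median was 0.53, and without female replicate 5 or male replicate 6 there were 2 lower. Sult2a1, which sulfates hydroxysteroids and bile acids, read 6.67, 4.14, 5.99, 6.89, 5.65 and 6.28 in females 1 to 6 and 2.55, 2.56, 3.25, 2.53 and 2.87 in males, at least 4.73-fold apart. Sult2a7 differed by 2.79 (SE 0.32), at least 4.67-fold, with every male at the level without transcript. Sult2a2 ran from 3.52 over 3.87 to 4.17 in females against 2.39 to 2.74 in males and was not called, with a difference of 1.29 (SE 0.41, limma adjusted p = 0.073). All males and the lowest female lay under 3.69, which leaves at least 1.12-fold. Its groups did not overlap, and in a fit of the WT arrays alone it was called (limma adjusted p = 6.06e-07).

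Sult1c2 differed by 1.2 (SE 0.19), Sult1a1, which sulfates phenols, by 0.53 (SE 0.08) and Papss2, which makes the sulfate donor, by 0.83 (SE 0.09). Papss2 stood at 11.38 ± 0.17 for the females (SD, n = 6) against 10.55 ± 0.2 (SD, n = 5) in males.

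Of 10 glucuronidation genes 4 were lower in females and 1 higher, against 2.3% and 3.45% of all autosomal genes, with a median of -0.2. Ugt2b38 ran from 4.09 over 4.47 to 6.05 in females against 8.98, 8.64, 8.78, 7.03 and 7.45 in males, a difference of -3.46 (SE 0.36, 11-fold), with male replicates 5 and 6 the lowest males. Ugt2b1 differed by -1.15 (SE 0.1), Ugt2b5 by -0.51 (SE 0.11) and Ugdh, which makes the glucuronic acid donor, by -0.62 (SE 0.1). Ugt2b37 alone went the other way, by 1.93 (SE 0.31), from 6.23 over 6.86 to 7.9 in females against 5.47, 4.79, 5.73, 4.72 and 4.72 in males.

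Of 20 glutathione transferase genes 5 were higher in females and 1 lower, against 3.45% and 2.3% of all autosomal genes. The list median was -0.03. Gstt3 differed by 1.3 (SE 0.1) and its relative Gstt1 by 0.37 (SE 0.07). Mgst3, a microsomal transferase, differed by 1.0 (SE 0.11), with females from 8.75 over 8.84 to 8.95 and males at 7.81, 7.95, 7.83, 7.82 and 7.81. Gstm6, the member called lower, differed by -0.5 (SE 0.11) and its groups overlapped. Without female replicate 1 or 4 there were 2 lower.

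Most steroid enzymes were not called, though a larger share was called than the 5.76% of all autosomal genes. Of 20 measured, 5 were lower in females, 2 were higher and 13 were not called, with a median of -0.08. Hsd3b5, a 3-ketosteroid reductase found in male liver, read 8.19, 10.09, 9.9, 9.83, 7.74 and 9.22 in females 1 to 6 and 12.64, 12.48, 12.75, 12.41 and 12.27 in males. All males were above all females, the females 1 and 5 were the lowest, and the difference was -3.35 (SE 0.32, limma adjusted p = 4.8e-08), 10.2-fold. Hsd3b4 differed by -1.06 (SE 0.14), with females at 3.69 to 4.0, at or close to the level without transcript. Hsd17b6, which oxidises androgen metabolites, went the other way with Cyp17a1, by 0.99 (SE 0.15).

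Male replicate 6 was the highest or the lowest WT male for every Hsd3b gene named here. It was the lowest at 12.27 for Hsd3b5 and at 4.68 for Hsd3b4. The 6 KO males averaged 12.03 ± 0.32 (SD) and 4.65 ± 0.4 for these. Hsd3b2 read 9.74, 8.65, 8.77, 8.58 and 10.53 in males 2 to 6 against 7.25, 7.47 and 7.85 (lowest, median, highest) in females, a difference of -1.76 (SE 0.26), and its other probe set differed by -0.02. Hsd3b6 and Hsd3b3, both picked out after their values were seen, had the reverse pattern, with male replicate 6 the lowest male. Hsd3b6 read 8.46, 8.62, 8.43, 8.49 and 7.37 in males against 7.15 to 7.59 in females, a difference of -0.93 (SE 0.16) that became -1.15 without that male. Hsd3b3 read 11.63, 11.88, 12.06, 11.86 and 10.11 in males against 10.43 to 11.56 in females and was not called, with a difference of -0.39 (SE 0.28, limma adjusted p = 0.531). Without male replicate 6 it was -0.74 (limma adjusted p = 0.0711). The 6 KO males averaged 10.3 ± 0.25 (SD) for Hsd3b2, 7.35 ± 0.03 for Hsd3b6 and 10.12 ± 0.22 for Hsd3b3, so male replicate 6, at 10.53, 7.37 and 10.11, stood nearer to the KO males than to the other WT males in all 3. For P2ry13 itself this male read 5.92, where the WT males read 5.8 to 6.34 and the KO males averaged 5.19 ± 0.11 (SD). Why it stood nearer to the KO males in the 3 genes was not tested. The part of that array in the values of the family was not tested beyond leaving it out.

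Bile acid enzymes that were called were all lower in females. Of 23 measured, 6 were lower and 0 higher, against 2.3% and 3.45% of all autosomal genes, and the median of -0.05 lay near 0. Without female replicate 1, 3 or 6, 1 gene was called higher. Cyp7b1 and Cyp8b1 belong to the synthesis proper, the second being the 12-alpha-hydroxylase that sets the cholic acid share. Cyp8b1 read 11.02, 11.99, 11.87, 11.89, 12.52 and 12.11 in females 1 to 6 and 12.52, 12.65, 12.67, 12.71 and 12.55 in males, a difference of -0.72 (SE 0.16, limma adjusted p = 0.00619), with the highest female at the lowest male. Scp2, Amacr and Acox2, which shorten the side chain in peroxisomes, differed by -0.29, -0.32 and -0.35 (SE 0.06, 0.07 and 0.08).

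Cyp7a1, the rate-limiting enzyme of the classic pathway, was looked at after its values were seen and was not called. Females 1 to 6 read 7.88, 8.01, 9.33, 10.27, 10.33 and 9.16 and males 8.15, 9.49, 8.78, 8.86 and 8.67, a difference of 0.37 (SE 0.34, limma adjusted p = 0.66). The females spread over more than 2 units and covered the whole male range.

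Among 40 hepatobiliary and drug transporters 9 were higher in females and 2 lower, against 3.45% and 2.3% of all autosomal genes. Their median was 0.12. The sinusoidal uptake carriers split. Slco1a1, an organic anion uptake carrier driven by androgen and growth hormone in males, read 9.23, 9.86, 10.25, 9.98, 9.23 and 9.52 in females 1 to 6 and 11.07, 10.99, 11.28, 10.98 and 11.01 in males, a difference of -1.39 (SE 0.2, 2.62-fold). Slco1a4, its paralog with an opposite bias, differed by 1.05 (SE 0.2), and its other probe set by 1.39. Slc10a1, the sodium-dependent bile acid uptake carrier, differed by 0.35 (SE 0.06), at 12.39 ± 0.09 (SD, n = 6) against 12.04 ± 0.08 (SD, n = 5).

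The canalicular exporters split as well. Abcg2, which exports xenobiotics and urate, ran from 8.6 over 9.05 to 9.09 in females against 10.46, 10.5, 10.54, 10.26 and 10.17 in males, a difference of -1.41 (SE 0.1, 2.66-fold), and its other probe set differed by -0.63. Abcg5, one partner of the sterol exporter, ran from 10.04 over 10.15 to 10.23 against 9.11, 9.46, 9.44, 9.38 and 9.81, a difference of 0.72 (SE 0.09). Every female was above every male for Abcg5 and below for Abcg2.

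Of 67 carriers and channels for amino acids, sugars, ions and metals 13 were higher in females and 5 lower. This stood against 3.45% and 2.3% of all autosomal genes, with a list median of 0.1. Atp6v0d2, a subunit of the proton pump best known from osteoclasts, ran from 5.66 over 6.01 to 7.37 in females against 3.64, 3.48, 3.97, 3.98 and 4.24 in males, a difference of 2.34 (SE 0.27, 5.06-fold) that was 1.34 on its other probe set. The monocarboxylate carriers Slc16a7 and Slc16a12 differed by 0.91 (SE 0.13) and 0.6 (SE 0.1), and the phosphate and urate carriers Slc17a1 and Slc17a4 by 0.62 (SE 0.11) and 0.72 (SE 0.1). Aqp4, a water channel, was lower in females by -0.92 (SE 0.15), and its other probe set by -0.99. Females read 3.77 to 4.27 for Aqp4, close to the level without transcript.

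**Figure D3:**
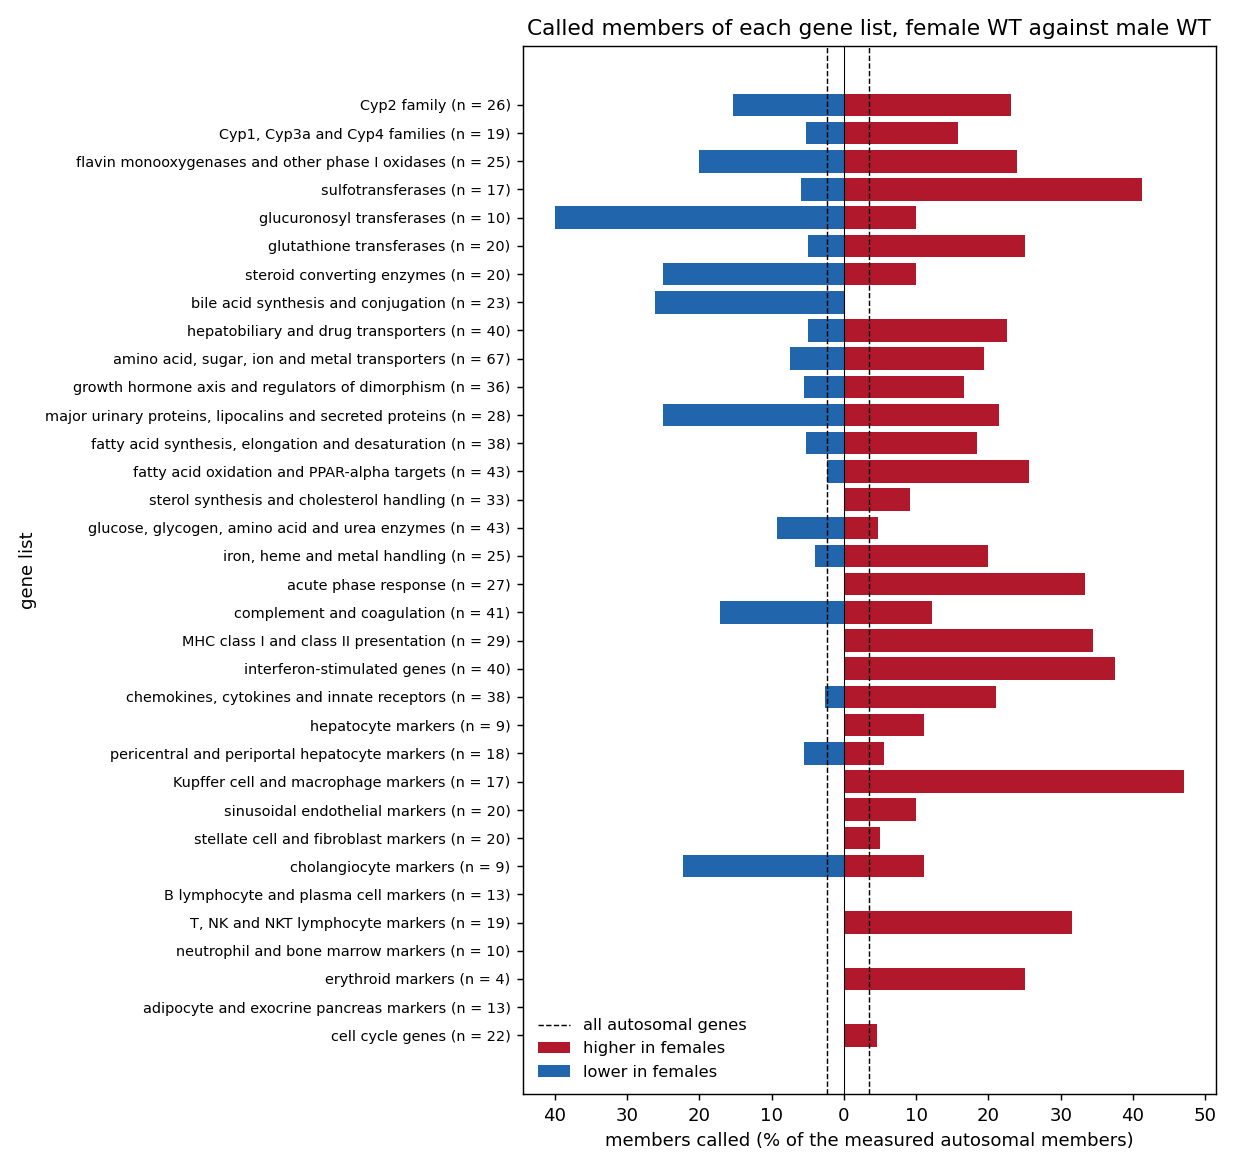
Share of the measured autosomal members of each gene list that was called higher (right) or lower (left) in females, in percent, with the shares over all autosomal genes, 3.45% and 2.3%, as dashed lines. Sulfotransferases, MHC, interferon-stimulated and Kupffer cell genes have bars mainly to the right, glucuronosyl transferases, steroid and bile acid enzymes mainly to the left.

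In fatty acid synthesis the females had slightly more of several enzymes and the males much more of Elovl3. Of 38 genes 7 were higher in females and 2 lower, against 3.45% and 2.3% of all autosomal genes. The median was 0.05, and without male replicate 2 there were 4 higher. Fasn, the fatty acid synthase, ran from 7.55 over 7.8 to 8.25 in females against 6.57, 7.45, 6.84, 7.0 and 7.38 in males, a difference of 0.79 (SE 0.16, limma adjusted p = 0.00221). Elovl6 differed by 0.66 (SE 0.12), Dgat2, which makes triglyceride, by 0.44 (SE 0.08) and Fads2, a desaturase, by 0.35 (SE 0.07). Fitm1, which helps to form lipid droplets, was lower in females by -1.45 (SE 0.19, 2.73-fold), from 6.83 over 7.34 to 7.91 against 8.92, 9.14, 8.7, 8.55 and 8.57.

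Of 43 genes of fatty acid oxidation and PPAR-alpha targets 11 were higher in females and 1 lower, against 3.45% and 2.3% of autosomal genes. The list median was 0.09. Acot3 and Acot4, peroxisomal thioesterases, differed by 2.98 (SE 0.22, 7.88-fold) and 1.16 (SE 0.09), and Acot3 ran from 7.73 over 8.13 to 9.12 in females against 5.24, 5.07, 5.14, 5.74 and 5.34 in males. Vnn1, a pantetheinase and PPAR-alpha target, differed by 1.22 (SE 0.22). Acnat2, a peroxisomal acyltransferase, differed by 3.11 (SE 0.24, 8.61-fold). Nudt7, a peroxisomal enzyme that degrades coenzyme A, went the other way, by -1.11 (SE 0.14), from 10.38 over 10.79 to 11.22 against 12.03, 11.95, 12.17, 11.49 and 12.12.

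Few sterol and lipoprotein genes were called. Of 33 measured 3 were higher in females and 0 lower, against 3.45% and 2.3% of all autosomal genes. The median was 0.0, and without female replicate 5, 1 was lower. The 3 were Vldlr, a lipoprotein receptor, at 0.74 (SE 0.13), Lcat, which esterifies plasma cholesterol, at 0.31 (SE 0.07) and Apom, an apolipoprotein of HDL, at 0.31 (SE 0.07).

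Of 43 genes of glucose, glycogen, amino acid and urea metabolism 2 were higher in females and 4 lower. This stood against 3.45% and 2.3% of all autosomal genes, with a list median of 0.02. With any 1 array left out other than female replicate 2 or male replicate 5, 1 was higher, and without female replicate 6, 2 were lower. Asns, which makes asparagine and responds to amino acid shortage, was the exception in size. It ran from 3.94 over 4.45 to 4.77 in females against 5.31, 6.59, 6.76, 7.41 and 7.5 in males, a difference of -2.3 (SE 0.25, 4.91-fold), with male replicate 2 the lowest male. Mat1a, which makes the methyl donor of liver, differed by 0.41 (SE 0.09) and Kynu, of tryptophan breakdown, by -0.34 (SE 0.08).

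Most iron, heme and metal genes were not called, though a larger share was called than the 5.76% of all autosomal genes. Of 25 iron, heme and metal genes 5 were higher and 1 lower, with a median of 0.05. The lower count rested on single arrays: it was 0 without female replicate 3 or 6 or male replicate 2, 4 or 6, and 2 without female replicate 4 or male replicate 5. Mt1 and Mt2, the metallothioneins that bind zinc and copper, ran from 10.79 over 12 to 12.89 and from 8.74 over 9.75 to 11.17 in females. Males read 8.11, 8.59, 8.69, 9.64 and 9.23 for Mt1 and 6.84, 6.7, 7.04, 7.4 and 6.92 for Mt2. The differences were 3.05 (SE 0.33, 8.29-fold) and 2.91 (SE 0.38, 7.5-fold), and all females were above all males for both.

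Of the 2 hepcidin genes of the mouse, Hamp2 differed far more than Hamp, which encodes the hormone that blocks iron export. Hamp2 ran from 11.8 over 12.38 to 12.57 in females against 8.93, 10.11, 9.49, 9.93 and 9.57 in males, a difference of 2.66 (SE 0.2, 6.33-fold). Hamp ran from 14.02 over 14.09 to 14.25 against 13.35, 13.89, 13.56, 13.92 and 13.9, a difference of 0.39 (SE 0.09, limma adjusted p = 0.00854). Hamp lies near the top of the scale of the array. Slc40a1, the iron exporter that hepcidin acts on and which Kupffer cells also carry, differed by 0.48 (SE 0.11) with overlapping groups.

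Acute phase genes were called in 1 direction. Of 27 measured 9 were higher in females and 0 lower, against 3.45% and 2.3% of all autosomal genes. The list median was 0.16, and the 9 include both metallothioneins. Apcs, serum amyloid P, ran from 11.35 over 11.62 to 12.02 in females against 10.44, 10.73, 10.56, 10.67 and 10.73 in males, a difference of 1.02 (SE 0.16, limma adjusted p = 0.00017). Orm2 and Orm3, which encode acid glycoproteins, differed by 1.61 (SE 0.33) and 1.11 (SE 0.21), and Il6ra, the interleukin-6 receptor, by 0.82 (SE 0.14), while its other probe sets differed by -0.16 and 0.54. Saa2, a strong marker of an acute phase reaction and chosen after its values were seen, read 5.66 to 6.63 in females and 6.26, 5.55, 5.62, 5.31 and 5.54 in males, with no call (0.41, SE 0.36, limma adjusted p = 0.63).

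Most complement and coagulation genes were not called, though a larger share was called than the 5.76% of all autosomal genes. Of 41 complement and coagulation genes 5 were higher in females and 7 lower, with a median of 0.08. C6, which begins the growth of the pore, ran from 7.69 over 8.05 to 8.35 in females and read 11.16, 10.97, 11.37, 10.98 and 11.31 in males, a difference of -3.11 (SE 0.11, limma adjusted p = 1.38e-17), 8.66-fold, and -3.26 at its other probe set. C8a and C8b, chains of a later component, differed by -1.0 (SE 0.1) and -1.02 (SE 0.12), and C9, which closes the pore, by -0.94 (SE 0.09). For these 4 genes, named for their small p, no female reached the lowest male. Of all 41 genes 6 were apart with females lower, against 2.25% of all autosomal genes.

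Susd4, an inhibitor of the complement pathways, was also lower in females, by -2.2 (SE 0.16, 4.6-fold), from 5.79 over 6.43 to 6.9 against 8.39, 8.27, 8.64, 8.64 and 8.74. Mbl2, a mannose-binding lectin that starts the lectin pathway, was higher in females, by 0.67 (SE 0.07), from 12.97 over 13 to 13.12 against 12.2, 12.35, 12.3, 12.46 and 12.46.

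Antigen presentation genes were higher in females wherever they were called. Of 29 measured 10 were higher and 0 lower, against 3.45% and 2.3% of all autosomal genes. The median was 0.27, and without male replicate 5 there were 6 higher. Psmb8 and Psmb10, subunits of the immunoproteasome, differed by 0.69 (SE 0.11) and 0.59 (SE 0.08). Tap2 and Tapbp, which load peptides on class I molecules, differed by 0.4 (SE 0.09) and 0.53 (SE 0.07), Cd1d1, which presents lipids, by 0.43 (SE 0.06), and Cd74, the class II invariant chain, by 0.57 (SE 0.12). Psmb8 ran from 9.61 over 9.71 to 9.83 in females against 9.36, 8.87, 9.05, 8.88 and 8.95 in males. The sexes did not overlap for any of these 6, though the differences are under 1. These 6 were named for having the smallest p of the list. Of all 29 members 7 were apart with females higher, against 3.06% of all autosomal genes.

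Interferon-stimulated genes were likewise called in 1 direction. Of 40 measured 15 were higher in females and 0 lower, against 3.45% and 2.3% of all autosomal genes, with a median of 0.27. The guanylate-binding proteins and immunity-related GTPases, which attack intracellular microbes and answer mainly to interferon-gamma, led. Gbp7 ran from 6.63 over 6.96 to 7.55 in females against 5.31, 5.75, 5.74, 5.66 and 5.48 in males, a difference of 1.41 (SE 0.16, 2.66-fold). Gbp3 differed by 1.24 (SE 0.12), Igtp by 1.05 (SE 0.12) and Irgm2 by 0.62 (SE 0.11). Ifit2, an antiviral RNA-binding protein, differed by 0.7 (SE 0.11) and Trim30a by 0.86 (SE 0.15).

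Of 38 chemokines, cytokines and innate receptors 8 were higher in females and 1 lower, against 3.45% and 2.3% of all autosomal genes. Their median was 0.06. Il18bp, which blocks interleukin-18, differed by 0.68 (SE 0.1), Il1rn, which blocks the interleukin-1 receptor, by 0.66 (SE 0.14) and Ccl2, a monocyte chemokine, by 0.63 (SE 0.13) with overlapping groups. Il1rap, the accessory chain of that receptor, was lower in females by -0.53 (SE 0.1), while its other probe sets differed by 0.21 and -0.29.

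**Figure D4:**
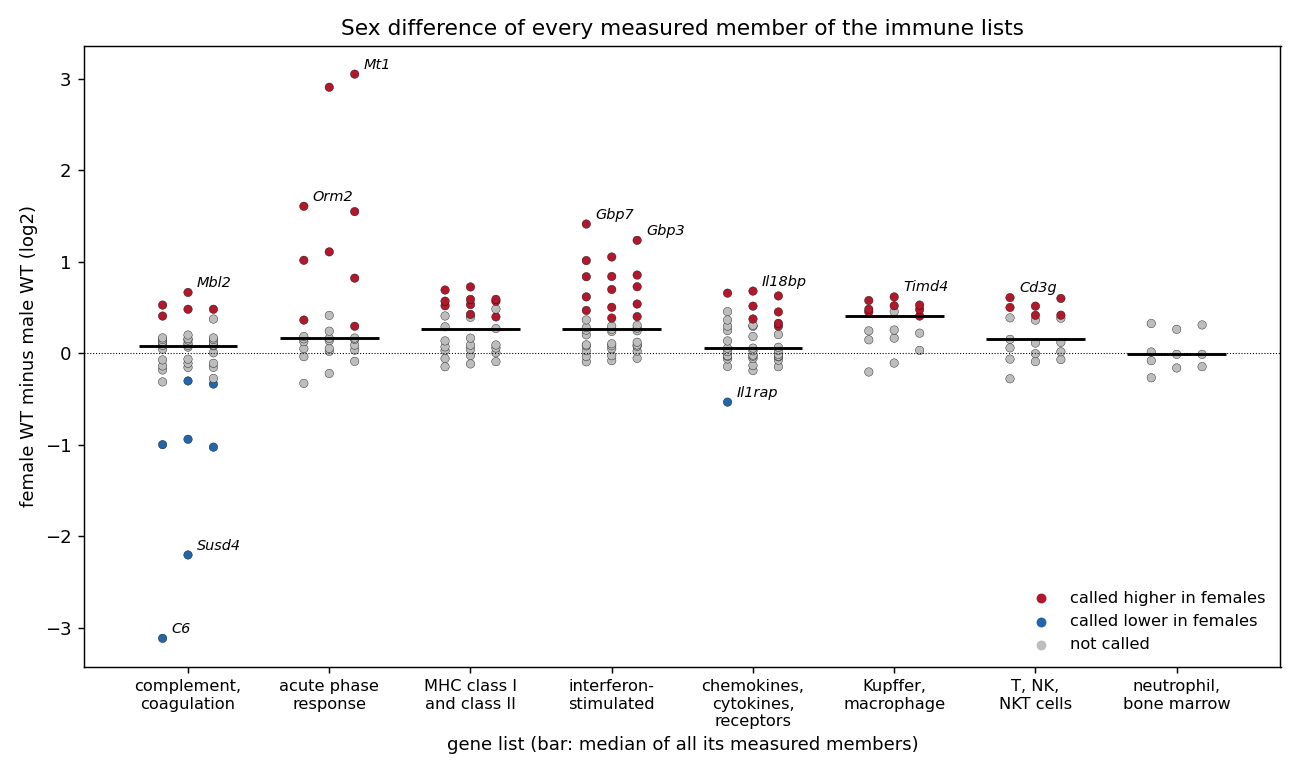
Female minus male difference in log2 for every measured member of 8 immune lists, coloured by whether the gene was called, with the median of all measured members as a bar. Called MHC and interferon genes all lie above 0, the complement genes reach from Mbl2 at 0.67 to C6 at -3.11, and the neutrophil list has no called member.

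Markers of some immune cells were higher in females too. Of 17 Kupffer cell and macrophage markers 8 were higher in females and 0 lower, against 3.45% and 2.3% of all autosomal genes. Their median was 0.41. The summed linear intensity of these markers was 8289 to 9832 in females and 6549 to 7410 in males, with no overlap. Slc40a1 and Cd5l weigh heavily in that linear sum, so the sum does not stand for all 17 markers. Of the 17 markers 3 were apart with females higher, against 3.06% of all autosomal genes. Itgam and Lyz2 were at the level without transcript in both sexes. Folr2 differed by 0.58 (SE 0.1), Timd4 by 0.62 (SE 0.11), Adgre1, a surface antigen of mature macrophages, by 0.52 (SE 0.09) and Cd5l by 0.45 (SE 0.1), the last with overlap. Clec4f, the most Kupffer-specific of them and picked out after its values were seen, ran from 9.14 over 9.31 to 9.72 against 9.4, 8.89, 9.05, 9.02 and 9.18 and was not called (0.25, SE 0.11, limma adjusted p = 0.258).

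Of 19 markers of T, NK and NKT cells 6 were higher in females and 0 lower, against 3.45% and 2.3% of all autosomal genes. Their median was 0.15 and their summed intensity 1155 to 1263 against 800 to 1093. Zap70 weighs heavily in that linear sum, so the sum does not stand for all 19 markers. It averaged 9.08 ± 0.12 in females (SD, n = 6) and 8.58 ± 0.37 in males (SD, n = 5), with overlapping groups. Ptprc, carried by all leukocytes, differed by 0.6 (SE 0.12) and Nkg7 by 0.42 (SE 0.09). Cd3g was at the level without transcript in every male and in females 3 and 5, which leaves at least 1.09-fold. Cd247 was at that level in both sexes, and without male replicate 3, 1 marker was lower. Of 20 sinusoidal endothelial markers 2 were higher and 0 lower, with sums of 5164 to 5619 against 4253 to 4862, Fcgr2b among them at 0.32 (SE 0.07). Without female replicate 1, 4 endothelial markers were called, and with any other array left out except female replicate 2 or male replicate 4, 1 was.

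Stellate cell markers had 1 of 20 called higher, near the 3.45% of all autosomal genes. Their sums overlapped, at 7307 to 8578 against 6602 to 7423. Their count was 0 without female replicate 4 or male replicate 5 and 2 without female replicate 1 or 6. Markers of B cells and of neutrophils had 0 called members of 13 and 10, with sums of 202 to 238 against 199 to 228 and 203 to 257 against 216 to 234; without female replicate 1 or male replicate 2, 1 neutrophil marker was called. Of 9 cholangiocyte markers 1 was higher, Prom1 at 0.79 (SE 0.2), and 2 lower, with Krt23 at -0.49 (SE 0.11). Without female replicate 1 or 5 or male replicate 4 or 6, 1 cholangiocyte marker was lower. The part of cell composition in the presentation, interferon and complement differences was not tested.

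Secreted proteins and major urinary proteins divided evenly. Of 28 measured 6 were higher in females and 7 lower, against 3.45% and 2.3% of all autosomal genes, with a median of 0.02. Serpina6, the plasma carrier of corticosteroids, ran from 12.17 over 12.39 to 12.86 in females against 11.27, 11.47, 11.68, 11.49 and 11.43 in males, a difference of 1.01 (SE 0.1, 2.01-fold). Afm, a vitamin E-binding protein, differed by 0.55 (SE 0.06). Serpina12, also known as vaspin, differed by -1.35 (SE 0.24), Cspg5 by -0.8 (SE 0.09) and Mup5, a pheromone carrier, by -0.7 (SE 0.12). Females read 3.77 to 4.07 for Cspg5, close to the level without transcript. Tafa2, a chemokine-like secreted protein, ran from 4.86 over 5.52 to 6.34 in females with every male at the level without transcript, at least 3.54-fold.

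Most genes of the growth hormone axis and the regulators of dimorphism were not called. Even so, a larger share was called than the 5.76% of all autosomal genes. Of 36 genes of the growth hormone axis and regulators 6 were higher in females and 2 lower, with a median of 0.17. Trim24, a cofactor of nuclear receptors, ran from 8.51 over 8.82 to 9.32 in females against 6.58, 6.82, 7.0, 6.77 and 6.94 in males, a difference of 2.04 (SE 0.14, 4.12-fold). Esr1, the estrogen receptor alpha, ran from 8.29 over 8.59 to 9.23 against 6.57, 7.31, 6.59, 7.25 and 6.8, a difference of 1.75 (SE 0.2, 3.35-fold), and 0.47 at its other probe set. Tox differed by 1.59 (SE 0.19), and by 0.71 on its other probe set.

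Cux2, the female-specific repressor, ran from 4.78 over 5.23 to 5.8 in females against 4.48, 4.56, 4.4, 4.61 and 4.46 in males, a difference of 0.7 (SE 0.13), and 0.16 at its other probe set. Nr1i3, the receptor CAR that drives Cyp2b genes, differed by 0.54 (SE 0.09) and Egfr, the epidermal growth factor receptor, by -0.9 (SE 0.13). Igfals, which keeps IGF1 in plasma, differed by 0.41 (SE 0.11, limma adjusted p = 0.0262), but leaving out female replicate 4 or 6 or male replicate 2, 3 or 5 ended the call, at 0.34 to 0.42. Cux1 differed by -0.31 (SE 0.08, limma adjusted p = 0.0256), and its call ended without female replicate 5 or 6 or male replicate 2 or 4, at -0.28 to -0.3. Of its 5 other probe sets, 3 differed by -0.24, -0.3 and -0.07 and were not called. The count of 2 lower became 1 without female replicate 6 or male replicate 4.

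Ghr, the growth hormone receptor, averaged 12.19 ± 0.13 for the females (SD, n = 6) and 12.39 ± 0.11 for the males (SD, n = 5) (-0.21, SE 0.07, limma adjusted p = 0.0975), and it was called at -0.25 without female replicate 5 or male replicate 2. Stat5b stood at 7.99 ± 0.12 (SD, n = 6) and 7.82 ± 0.09 (SD, n = 5) and Igf1, the main endocrine product of the axis, at 11.34 ± 0.21 (SD, n = 6) and 11.1 ± 0.1 (SD, n = 5). The adjusted p from limma was 0.308 for Stat5b and 0.143 for Igf1. Lifr, the leukemia inhibitory factor receptor, differed by 0.1 (SE 0.12).

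Genes that answer quickly to growth hormone pulses varied widely among the males. Bcl6, the repressor that pulses switch off, read 7.36, 7.96, 7.99, 10.63 and 10.75 in males 2 to 6 and 6.23, 6.82 and 8.05 (lowest, median, highest) in females. Socs2, a feedback inhibitor that growth hormone induces, read 8.53, 8.89, 7.98, 5.34 and 6.97 in the same males, and Cish, another, 7.87, 8.3, 8.51, 6.26 and 6.59. Onecut1 read 7.9, 8.51, 8.19, 5.54 and 6.57. Males 5 and 6 were thus the highest for Bcl6 and the lowest for Socs2, Cish and Onecut1, and both lay below every female for these 3 genes.

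None of the 4 was called between the sexes. The differences were -1.91 (SE 0.62, limma adjusted p = 0.0815) for Bcl6, 1.27 (SE 0.52, limma adjusted p = 0.197) for Socs2, 1.05 (SE 0.49, limma adjusted p = 0.272) for Cish and 0.48 (SE 0.52, limma adjusted p = 0.714) for Onecut1. Without male replicate 2, Bcl6 was called at -2.31 (limma adjusted p = 0.0408).

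Of 22 cell cycle genes 1 was higher in females, near the 3.45% of all autosomal genes, and without male replicate 2 there were 2. The gene called on all arrays was Ccnd1, the cyclin of the entry into the cycle. It ran from 9.07 over 9.41 to 9.64 in females against 7.33, 7.13, 7.12, 7.43 and 7.13 in males, a difference of 2.17 (SE 0.17, 4.49-fold), and its other probe set differed by 2.31. Birc5, Bub1, Top2a, Tpx2 and Tyms, which mark dividing cells, were at the level without transcript in both sexes.

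The knockout animals gave a second set of females and males, whose means share no array with the WT means although 1 estimate of the spread serves both. Of the 1050 autosomal genes called in WT, 1028 had the same direction in KO (97.9%), where 67.0% of all autosomal genes did, and 643 were also called there. In KO 1235 autosomal genes were called (6.77%), 858 higher in females (4.7%) and 377 lower (2.07%). All 37 genes that passed 2 in WT were called in the same direction in KO. P2ry13 itself stood at 6.27 ± 0.17 for WT females (SD, n = 6) and 5.99 ± 0.22 (SD, n = 5) in WT males (0.28, SE 0.09, limma adjusted p = 0.0885), and without female replicate 5 or male replicate 2 it was called, at 0.32 and 0.36.

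The WT difference minus the KO difference was called for 4 genes, 0.0219% of the autosomal ones (0.0104% of all probe sets), while 1973 probe sets had an unadjusted p under 0.05 where 1919 would by chance. Sult2a1 differed by 3.18 in WT and 6.68 in KO, the KO females standing at 9.38 ± 0.36 (SD, n = 6). Sult2a2 differed by 1.29 in WT and 6.21 in KO, the KO females at 8.86 ± 1.52 (SD, n = 6). Hao2 differed by 3.69 in WT and 6.41 in KO, and Hsd3b5 by -3.35 and -6.6, the KO females at 9.12 ± 0.31 and 5.43 ± 0.63 (SD, n = 6). The limma adjusted p of the difference between the differences was 6.27e-05 for both Sult2a genes, 0.0131 for Hao2 and 0.00116 for Hsd3b5. All 4 had the same direction in both genotypes and a larger size in KO. WT and KO males stood at 2.75 and 2.69 for Sult2a1, 2.57 and 2.65 for Sult2a2, 2.8 and 2.71 for Hao2 and 12.51 and 12.03 for Hsd3b5.

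**Figure D5:**
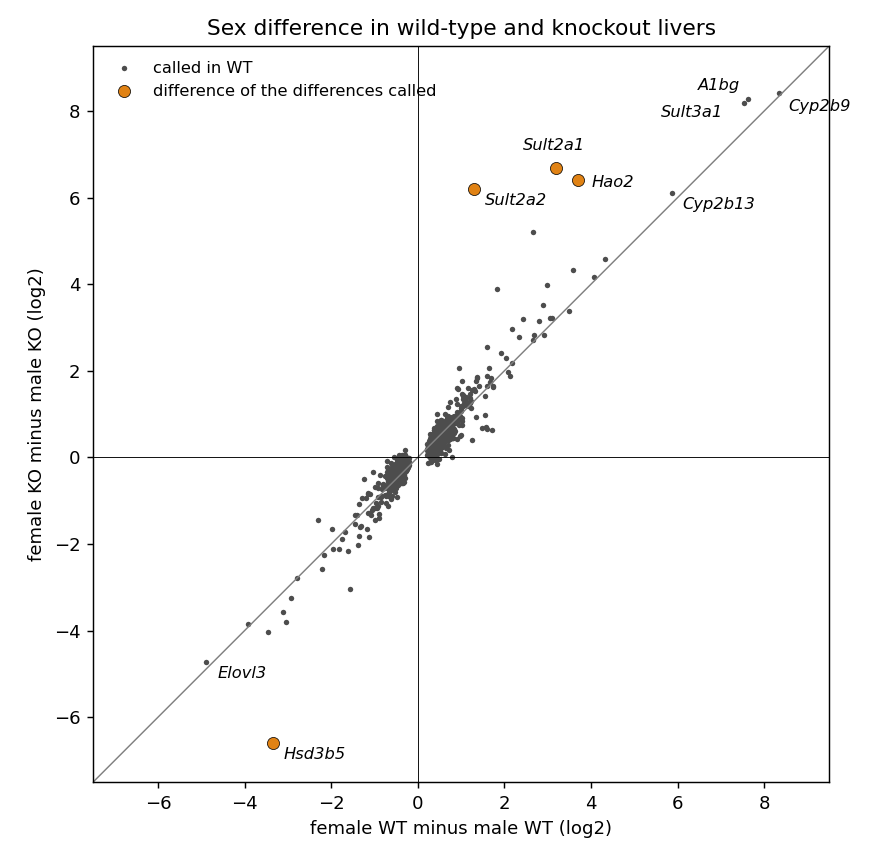
Female minus male difference in log2 in WT (horizontal) and KO (vertical) for the 1050 autosomal genes called in WT, with the line of equal differences, and in orange the 4 genes whose WT and KO differences differed. The points follow the line, and Sult2a1, Sult2a2 and Hao2 lie above it and Hsd3b5 below.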

How the data were processed

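RNA of each liver was amplified to biotin-labelled cRNA and read on 1 array per mouse. The values analysed are the authors' deposited linear intensities per probe set. The submitters' processing notes name RMA, without a version or settings. The table runs from 4.12 to 29673.9, and no column lies outside the 23 samples. Values were converted to log2 with no further scaling. Groups and replicate numbers came from the titles.

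Of 38385 probe sets 24478 had 1 gene symbol in the platform annotation, 65 several and 13842 none, and 3958 genes had several probe sets, of which the brightest over all arrays stands for the gene. Chromosomes and promoter windows came from RefSeq tables of GRCm38.p6, where 24231 of the 24478 were placed; 902 genes on X or Y or with no chromosome were left out.

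Limma 3.58.1 in R 4.3.3 fitted 1 mean per group to all 23 arrays (residual degrees of freedom 19, prior 7.61), which pools the spread of the 4 groups, with Benjamini-Hochberg adjustment over 38385 probe sets and a threshold of 0.05. On simulated data for female WT minus male WT over 38385 probe sets, it recovered 7 of 50 changes of 0.3 (14%), 38 of 50 of 0.5 (76%), 49 of 50 of 1 (98%) and 50 of 50 of 2, with 155 calls in all, 11 of them on unchanged probe sets. The simulation changed 50 probe sets of each size, far fewer than the 1632 called in the data. Its recovery thus need not hold for the data, where the adjustment works on more small p-values. Python 3.11.15 with matplotlib 3.10.9 drew the figures. The number of arrays limits the precision.

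Genes were named by a rule: the 15 highest and 15 lowest called differences, up to 6 called members of each of 36 lists (2 where none is called), members of the growth hormone list, the 5 and 5 extremes of the WT against KO test and the label checks. Genes whose symbol is a clone or predicted-gene name were left out of the rankings. Exceptions are named as such in the text; Fth1, Stab1, Tdo2 and Pdgfra, which the rule admits, are left without values because leaving out a single array ended their calls, a choice made after their values were seen. The members and the lists were chosen with earlier results of these data known. Same-numbered female and male arrays were not paired: their deviations correlated by 0.215, 0.0247, 0.0819, -0.037 and 0.0811 for numbers 2 to 6. Alternatives were a dim-probe filter, quantile normalization, equal medians, array weights, an intensity trend, a replicate block, a minimum change of 20%, a plain analysis of variance, the WT arrays alone, averaging each gene's probe sets for lists and leaving out each array. List counts with an array left out were added after the data were seen.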

Additional observations from a re-analysis of the deposited data

Results flagged for a closer look

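Among 308 groups of arrays tested for the genes named above other than Zap70, 20 had a highest or lowest array far from the others by Dixon's test, and chance flags about 1 in 20 groups. In males the lowest array stood apart at 4.32 for Cyp2b13, 4.46 for Orm3 and 4.85 for Trim30a (replicate 4), at 7.37 for Hsd3b6 and 10.11 for Hsd3b3 (replicate 6) and at 12.73 for Mat1a (replicate 2). The highest male stood apart at 2.86 for Tafa2 (replicate 6), 7.95 for Mgst3 (replicate 3), 11.28 for Slco1a1 (replicate 4) and 9.78 for Tapbp (replicate 5).

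In females the lowest array stood apart at 11.36 for Ugt2b5, 8.6 for Abcg2, 9.77 for Kynu and 11.63 for C9 (replicate 6), at 3.77 for Aqp4 (replicate 1) and at 4.79 for Ccl2 (replicate 5). The highest female stood apart at 7.98 for Fmo2 (replicate 4), 7.37 for Atp6v0d2 and 13.7 for Mat1a (replicate 5) and 8.23 for Mup5 (replicate 3).

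The sex difference itself differed between the genotypes for 4 genes by limma's test of the difference between the differences. WT minus KO was -4.92 for Sult2a2, -3.5 for Sult2a1, -2.72 for Hao2 and 3.25 for Hsd3b5.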

How the results depend on the processing

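The count of 1632 called probe sets between WT females and males was 1500 to 1804 with a dim-probe filter, quantile normalization, equal medians, array weights, an intensity trend or the replicate block, and 1296 from the WT arrays alone. It moved to 294 with a minimum change of 20%, to 2707 by a plain analysis of variance at p under 0.05 and a change over 20%, and to 765 by that test after Benjamini-Hochberg. Leaving out 1 array gave 1257 to 1472 calls over 11 fits. The 4 calls of the WT against KO test became 4 or 5 under every alternative run, and 4 to 5 over 23 fits with an array left out. With the intensity trend 3 of its 4 calls were shared. The share of calls higher in females was 59.7%, 52.8% with quantile normalization and 66.7% with equal medians.

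With the replicate number as a block 1506 probe sets were called, 1394 of them shared, and only number 2 of 5 correlated best with its own number. The block also called Sult2a2, at 1.43 (limma adjusted p = 0.0443).

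All 154 genes named above, Zap70 not counted, kept their direction under each alternative they were part of, and 97 also kept their side of the threshold. The minimum change of 20% ended 48 calls, the plain analysis of variance after Benjamini-Hochberg 30, and the WT arrays alone 3. Of 72 list counts 10 moved by over 1.5 times when each gene's probe sets were averaged and 7 with the WT arrays alone. With 6 and 5 arrays, differences near 0.3 are at the edge of what the fit can call, so a gene not called can still differ by that much. Signals near 3.69 cannot be told from no transcript.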
